A study of Mus musculus with 8 samples.

Results

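Myogenin peaks that lay away from promoters, were called both without and with bexarotene, and overlapped a p300 peak formed a set of 1448 intervals. The bexarotene myogenin list held 6642 intervals, of which 27 on the mitochondrial chromosome or in the first 3.1 Mb of chromosome 9 were left out, all of them shared with control. Of the remaining 6615 intervals, 2970 (44.9%) overlapped a control myogenin interval by at least 1 bp, and 250 of these had their center within 1 kb of a transcription start site (TSS) of a protein-coding transcript. Of the 2720 shared distal intervals left, 1448 (53.2%) overlapped an interval of the control or the bexarotene p300 list. Among all distal intervals of the bexarotene list the share with p300 was 43.0%, and among those called with bexarotene only it was 33.9%. These shares were what the set was chosen on, and nothing is read from them.

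C2C12 cells, a mouse myoblast line of strain C3H that fuses into myotubes when serum is withdrawn, were differentiated for 24 h in horse serum without (Ctl) or with (Bex) 50 nM bexarotene, an agonist of the retinoid X receptor. ChIP-seq, in which crosslinked chromatin is precipitated with an antibody and its DNA sequenced, was performed for myogenin and for p300 with 1 library per condition and antibody. Both conditions are the same cell line, which limits them to a culture model of differentiating myoblasts. The 4 deposited lists hold positions of called peaks and no tag counts, so the depth of each library cannot be read from them, and a longer interval is not a measure of tags. Without replicate libraries no condition was tested against another, and the 95% intervals given with shares and their differences cover counting error over peaks only.

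Myogenin is a basic helix-loop-helix transcription factor that pairs with an E protein, binds E-boxes and drives the genes of terminal muscle differentiation. p300 is a histone acetyltransferase that is brought to enhancers by DNA-bound factors, binds no DNA sequence of its own and acetylates histone H3, and its distal peaks are widely used to mark active enhancers. AP-1 factors of the bZIP family, Runx factors and Tead factors bind short sequences of their own that are common in enhancers of mesenchymal and muscle cells.

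Examples of sites with 2 or more E-boxes near the center are shown first, because the E-box is the sequence that myogenin binds. Of the 1448 sites, 283 had 2 or more within 50 bp of the center. Each of the following 6 windows covers 100 bp around the center of the bexarotene myogenin interval, on the plus strand of mm9, with E-boxes in capitals (the palindromic form CAGCTG and the asymmetric form CACCTG, which reads CAGGTG on the other strand).
Tnnt2: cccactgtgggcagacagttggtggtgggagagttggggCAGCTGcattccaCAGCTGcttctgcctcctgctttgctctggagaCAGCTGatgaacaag
Tcf12: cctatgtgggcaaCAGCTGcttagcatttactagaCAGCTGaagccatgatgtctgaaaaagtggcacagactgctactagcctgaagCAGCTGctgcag
Gm7325: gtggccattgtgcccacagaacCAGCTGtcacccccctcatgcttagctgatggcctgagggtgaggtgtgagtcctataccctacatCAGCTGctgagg
Purb: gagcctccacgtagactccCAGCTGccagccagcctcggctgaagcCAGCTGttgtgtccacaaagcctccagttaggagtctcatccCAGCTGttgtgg
Rgmb: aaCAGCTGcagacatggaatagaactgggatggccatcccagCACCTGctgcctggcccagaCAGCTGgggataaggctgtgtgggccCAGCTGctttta
D430041D05Rik: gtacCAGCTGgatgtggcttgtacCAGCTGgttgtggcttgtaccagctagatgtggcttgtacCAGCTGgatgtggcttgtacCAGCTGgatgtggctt

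The Tnnt2 window (chr1:137730837-137730936) lies 6565 bp upstream of the gene for cardiac troponin T, which is also made in immature skeletal muscle, and holds 3 CAGCTG sites that start 13 and 33 bp apart. The Tcf12 window (chr9:71722699-71722798) lies in intron 13 of the gene for the E protein HEB, a partner of the myogenic factors, and has its 3 sites 22 and 53 bp apart. The window near Gm7325 (chr17:45753141-45753240), the older symbol of myomixer, a micropeptide needed for myoblast fusion, has 2 sites 66 bp apart. The Purb window (chr11:6381770-6381869) has 3 sites 27 and 42 bp apart. The window whose nearest TSS is Rgmb (chr17:16355738-16355837), which encodes a co-receptor of bone morphogenetic proteins, has 4 sites and lies 392238 bp from that TSS. The window near D430041D05Rik (chr2:104259740-104259839) has 4 sites at steps of 20, 40 and 20 bp inside a tandem repeat. These spacings describe the printed windows only. Over the set, each gap of 0 to 20 bp between E-boxes was found at a mean of 12.4 peaks, and each of 21 to 40 bp at 12.35.

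A second group shows E-boxes beside a bZIP consensus (TGAGTCA or TGACTCA, each the reverse complement of the other) or a Runx consensus (TGTGGT, or ACCACA on the other strand). Each window covers 200 bp around the center, with all 3 kinds of match in capitals. The sites were picked for holding both an E-box and a bZIP match. Within 100 bp of the center, 230 of the 1448 sites (15.9%) held both.
Myod1: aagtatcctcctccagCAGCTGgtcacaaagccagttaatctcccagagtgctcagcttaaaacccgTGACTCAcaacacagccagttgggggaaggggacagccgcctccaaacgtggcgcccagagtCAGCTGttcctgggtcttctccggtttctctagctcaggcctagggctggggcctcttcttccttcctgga
Mybpc1: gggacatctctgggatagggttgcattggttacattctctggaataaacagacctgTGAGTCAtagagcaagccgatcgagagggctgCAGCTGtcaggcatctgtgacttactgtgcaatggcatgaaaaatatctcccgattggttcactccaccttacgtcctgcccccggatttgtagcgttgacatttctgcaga
Tead4: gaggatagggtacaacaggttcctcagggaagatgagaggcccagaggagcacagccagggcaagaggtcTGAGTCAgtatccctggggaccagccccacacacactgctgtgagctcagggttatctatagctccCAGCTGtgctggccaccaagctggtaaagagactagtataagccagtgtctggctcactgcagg
Runx1: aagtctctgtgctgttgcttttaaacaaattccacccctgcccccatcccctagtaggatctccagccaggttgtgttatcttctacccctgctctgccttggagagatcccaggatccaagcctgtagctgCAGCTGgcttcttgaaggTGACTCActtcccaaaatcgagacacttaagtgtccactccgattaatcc
Gadd45a: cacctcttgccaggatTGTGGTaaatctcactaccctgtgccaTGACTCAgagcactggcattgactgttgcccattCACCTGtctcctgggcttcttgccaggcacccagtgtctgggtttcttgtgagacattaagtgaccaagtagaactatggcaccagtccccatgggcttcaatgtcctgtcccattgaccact

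The Myod1 window (chr7:53608643-53608842) lies 23101 bp upstream of the gene for MyoD, the factor that commits cells to muscle, and has a bZIP match at base 68 between E-boxes at bases 17 and 130. The Mybpc1 window (chr10:88094434-88094633), near the gene for slow myosin-binding protein C of the thick filament, has the bZIP match at base 57 and the E-box at base 89. In intron 2 of Tead4, a Tead factor active in myoblasts, the window (chr6:128215303-128215502) has them at bases 71 and 137. The Runx1 window (chr16:92827985-92828184), 1774 bp upstream of the TSS, has the E-box at base 133 and the bZIP match at base 151. The Gadd45a window (chr6:67056586-67056785), near a growth arrest gene, holds a Runx match at base 17, a bZIP match at base 44 and an E-box at base 78. The other Gadd45a site within 100 kb had no bZIP match within 100 bp of its center.

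The myogenin interval had a median length of 266 bp (quartiles 212 and 345 bp) in the bexarotene list and 256.5 bp in the control list. In the control list 404 of the 1448 intervals (27.9%) had the smallest length of that list, 172 bp, and in the bexarotene list 260 (17.96%) had its smallest length, 168 bp. The bexarotene interval was the longer one at 738 sites and the control interval at 707, and 3 were equal. The difference, bexarotene minus control, had a median of 2 bp with quartiles of -48 and 65 bp, and the centers of the pair lay a median of 32 bp apart. Neither condition had the longer intervals throughout, as the plot of the interval lengths shows. Shared distal peaks without p300 were shorter, with a median of 223 bp, and 31.0% of them had the smallest length. Length came from the same calls as the selection, so these values are a description.

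**Figure D1:**
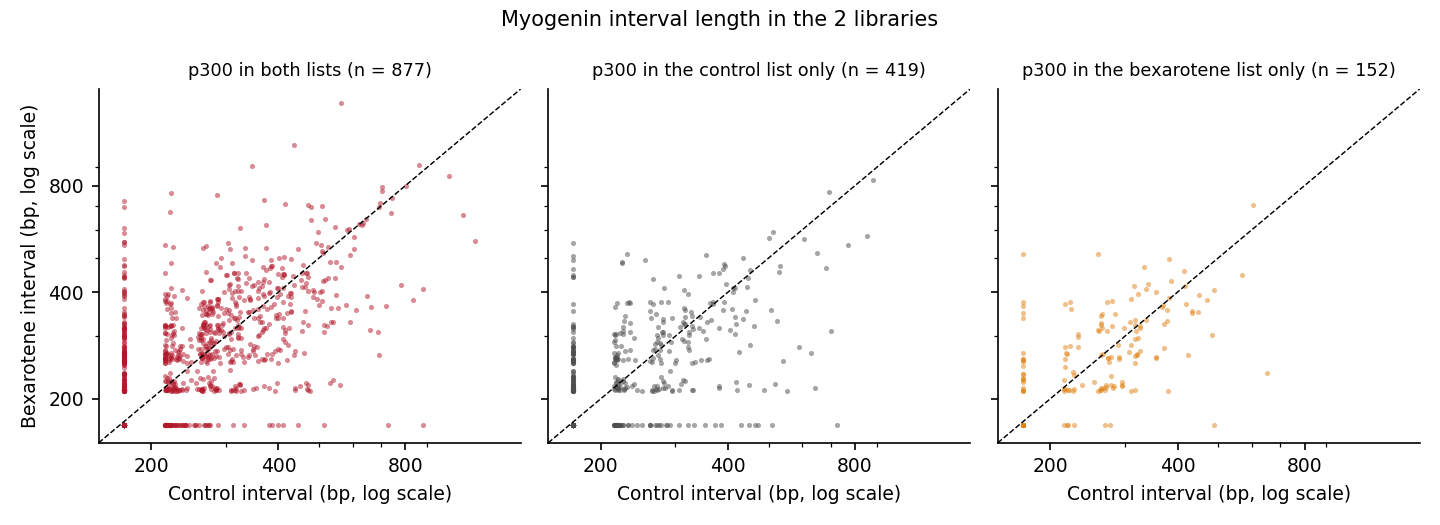
Length of the myogenin interval in control (x axis, bp, log scale) and with bexarotene (y axis, bp, log scale), 1 point per shared distal peak with p300, in 3 panels by the p300 list it overlapped. The dashed line marks equal lengths, and points lie on both sides of it in each panel, with bexarotene the longer at 480 of 877, 192 of 419 and 66 of 152 sites.

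The longest intervals lay near genes of varied function. The longest, 1366 bp in bexarotene and 564 bp in control, had its center 3425 bp downstream of the TSS of Cdh15, which encodes M-cadherin, an adhesion protein of muscle cells, and held 6 E-boxes over its length but none within 50 bp of the center. The next were near Cirbp (1044 bp), Nckap5l (917 bp), Sep15 (908 bp) and Mef2a (850 bp). Mef2a encodes a MADS-box factor that works with the myogenic factors, and its interval, 12649 bp upstream, held 6 E-boxes and was the only one of the 5 that was longer in control (1017 bp) than with bexarotene.

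With p300, 15 shared peaks had their center over 800 to 1000 bp from a TSS and a median length of 226 bp, and 15 had it over 1000 to 1200 bp away and a median length of 269 bp. The p300 overlap was over 100 bp at 1373 of the 1448 sites and at most 20 bp at 10 of them, and 8 shared distal peaks outside the set had a p300 interval within 20 bp.

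p300 had been called in both lists at 877 of the 1448 sites (60.6%, 95% Wilson interval 58.0 to 63.1%), in the control list alone at 419 (28.9%) and in the bexarotene list alone at 152 (10.5%). The control p300 list is the longer one, with 22051 intervals against 9154, and the lists do not give the tag totals behind them. Where p300 was in both lists the p300 interval had a median length of 382 bp in control and 251 bp with bexarotene. At the 419 sites with p300 in control alone its median length was 243 bp, and at the 152 sites with p300 in bexarotene alone it was 158 bp, the smallest length of that list, which 73.0% of them had. The myogenin interval had a median of 275 bp at the sites with p300 in both lists, 232 bp with p300 in control alone and 264.5 bp with p300 in bexarotene alone.

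Control p300 intervals at myogenin peaks, shared or not, were called again with bexarotene more often than those without a myogenin interval. An overlap with the control list alone placed a site in the set, so the presence in the bexarotene p300 list was not used for this comparison. Of the 1296 distal control p300 intervals at these sites, 884 (68.2%, 65.6 to 70.7%) overlapped a bexarotene p300 interval. Of the 16876 distal control p300 intervals without any myogenin interval, 4923 (29.2%, 28.5 to 29.9%) did, a difference of 39.0 percentage points (95% Newcombe interval 36.4 to 41.6). At distal peaks with myogenin in bexarotene alone the share was 55.8%, and at those with myogenin in control alone 57.8%, lower than at the shared sites by 12.46 points (8.41 to 16.5) and 10.4 points (5.43 to 15.4). At equal length these gaps were uneven. Above the smallest length and below 230 bp the shares were 44.8% at the shared sites, 41.9% with myogenin in bexarotene alone and 42.4% with myogenin in control alone, and at 400 bp and longer they were 86.4%, 83.2% and 82.1%, with overlapping Wilson intervals in both classes. In the same order they were 31.3%, 14.5% and 23.2% at the smallest length, 66.0%, 48.3% and 51.5% from 230 to below 300 bp, and 77.0%, 69.6% and 59.6% from 300 to below 400 bp.

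Control p300 intervals at the shared myogenin sites were longer (median 330 bp) than those without myogenin (226 bp), and longer intervals were found again more often in both groups. The difference was present within each length class, at 23.7 points among intervals of the smallest length (31.3% against 7.57%), 34.6 points from 230 to below 300 bp (66.0% against 31.4%) and 20.4 points at 400 bp and longer (86.4% against 66.1%). The smallest lower bound over the 5 classes was 16.5 points. Read the other way, 84.5% of the 1030 bexarotene p300 intervals at these sites overlapped a control p300 interval, beside 83.1% of the 6109 without myogenin. The part of tag depth in these shares was not tested.

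**Figure D2:**
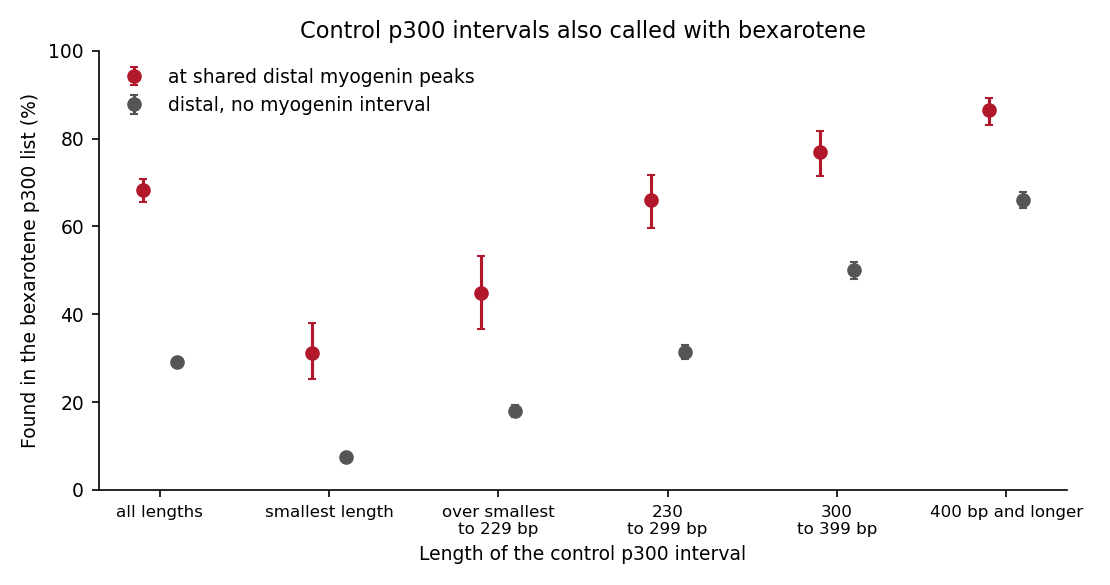
Share of distal control p300 intervals that overlapped a bexarotene p300 interval (y axis, %), by length of the control interval (x axis), at shared distal myogenin peaks and where no myogenin interval lay. Points are shares and bars 95% Wilson intervals; over all lengths the shares were 68.2% and 29.2%, and the bars of the groups do not meet in any length class.

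The center of the nearest p300 interval lay a median of 34 bp from the myogenin center (quartiles 15 and 72 bp), within 50 bp at 61.9% (59.4 to 64.4%) of the sites. At distal peaks with myogenin in bexarotene alone the median was 52 bp with 48.0% within 50 bp, and with myogenin in control alone it was 71 bp with 39.5%. Since overlap was required, these distances are a description.

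E-boxes were found in the central 100 bp of 1011 of the 1448 sites (69.8%, 67.4 to 72.1%). Windows of the same length 2 kb to either side, with no myogenin peak in them, held one in 11.3% of cases. The palindromic form CAGCTG was present at 58.8% of the sites (4.37% in flanking windows), and the asymmetric form, CACCTG or CAGGTG, at 17.9% (7.26%). Over the central 40 bp on each side there was 1.0 E-box per 100 bp of sequence, 7.08 times the 0.141 found 240 to 400 bp away. Counted over the whole interval, 92.4% of the sites held an E-box and 56.6% held 2 or more.

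Shared distal peaks without p300 held an E-box near the center somewhat more often, at 76.3%, a difference of -6.44 points (-9.74 to -3.10) for the sites with p300. Within 100 bp of the center the shares were 88.0% and 89.5%, and the interval of the difference, -1.48 points, included 0 (-3.85 to 0.916). By length, the interval of the difference within 50 bp lay below 0 from above the smallest length to below 230 bp (-10.3 points, -17.0 to -3.44) and from 230 to below 300 bp (-6.70 points, -12.6 to -0.641), and included 0 at the smallest length (-6.18 points, -13.5 to 0.984). In longer intervals the difference was above 0 without being clear of it, at 1.22 points from 300 to below 400 bp (-6.06 to 8.83) and 1.60 points at 400 bp and longer (-11.2 to 14.3). The asymmetric form carried most of this. It was found at 17.9% with p300 and 29.5% without (difference -11.6 points, -14.8 to -8.40), while CAGCTG was found at 58.8% and 61.9% (difference -3.10 points, -6.77 to 0.586). As a share of all E-boxes in this window, CAGCTG accounted for 79.8% with p300 (77.6 to 81.9%) and 70.7% without (68.3 to 73.0%). Sites with several E-boxes were also less common with p300. Among sites with at least 1 E-box in the window, 28.0% had 2 or more (25.3 to 30.8%), beside 40.4% without p300 (37.4 to 43.5%).

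Peaks seen in 1 condition only had fewer E-boxes. Distal peaks with p300 and with myogenin in bexarotene alone had one within 50 bp of the center at 53.4%, lower than the shared sites by 16.4 points (12.52 to 20.2), and those with myogenin in control alone at 34.5%, lower by 35.3 points (30.6 to 39.8). The control-only peaks were centered on the control interval and the shared sites on the bexarotene interval. The share of the shared sites around the control center is given in the last section. Intervals of the smallest length made up 57.8% of the bexarotene-only and 71.7% of the control-only peaks. Among intervals of the smallest length alone, the shared sites with p300 held an E-box at 66.2% and the bexarotene-only peaks with p300 at 48.1% (difference 18.1 points, 10.9 to 24.8). In the longer classes the difference was 10.3 points below 230 bp (1.72 to 18.9), 16.9 points from 230 to below 300 bp (8.26 to 25.7), 11.2 points from 300 to below 400 bp (-0.243 to 23.7) and 6.18 points at 400 bp and longer (-13.1 to 23.9), and the last 2 intervals included 0.

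**Figure D3:**
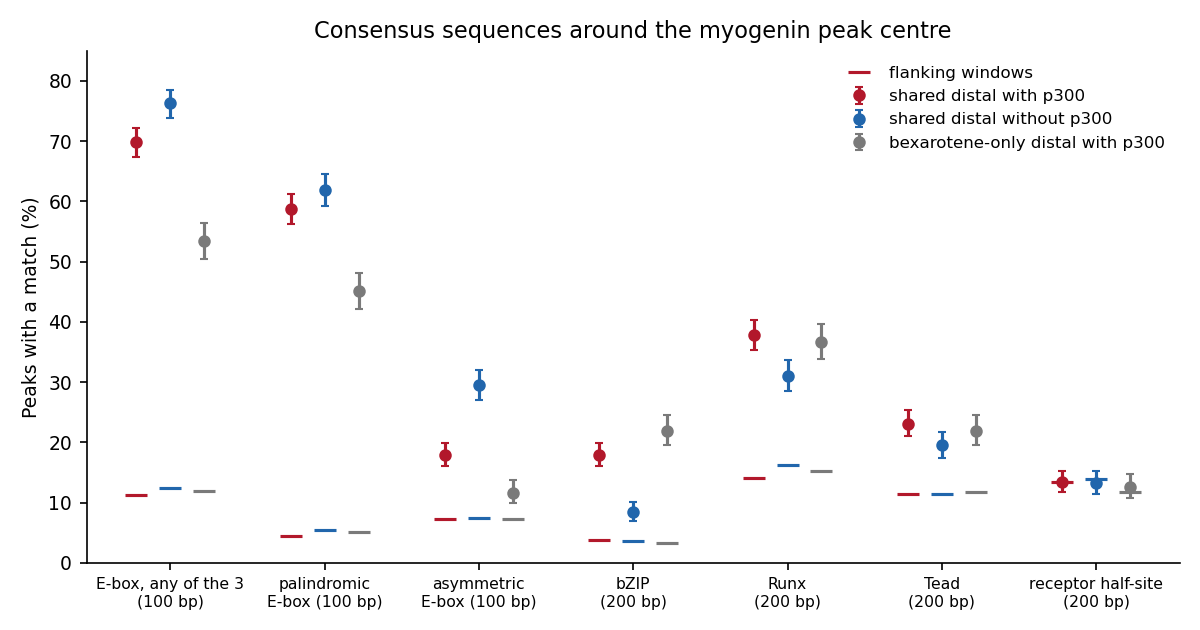
Share of distal myogenin peaks (y axis, %) with a match to each consensus (x axis) within the central 100 or 200 bp, for shared peaks with p300, shared peaks without p300 and bexarotene-only peaks with p300. Points are shares, bars 95% Wilson intervals and short horizontal lines the shares in flanking windows of the same length; the asymmetric E-box is at 17.9% with p300 and 29.5% without, and the bZIP consensus at 17.9% and 8.41%.

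Of the consensus sequences counted within 100 bp, bZIP had the largest difference in favor of the sites with p300. It lay within 100 bp of the center at 259 of the 1448 sites (17.9%, 16.0 to 19.9%; 3.76% in flanking windows) and at 8.41% of the shared distal peaks without p300, a difference of 9.47 points (6.96 to 11.97). The difference was 14.1 points among intervals of the smallest length, 12.3 points above that and below 230 bp, 9.96 points from 230 to below 300 bp, 8.91 points from 300 to below 400 bp and 3.04 points at 400 bp and longer, where its interval ran from -4.88 to 8.54. Its density over the central 40 bp on each side was 0.128 per 100 bp with p300 and 0.0560 without. Peaks with p300 and with myogenin in bexarotene alone (21.9%) or in control alone (19.0%) held it as well, so the bZIP share was not particular to shared sites.

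**Figure D4:**
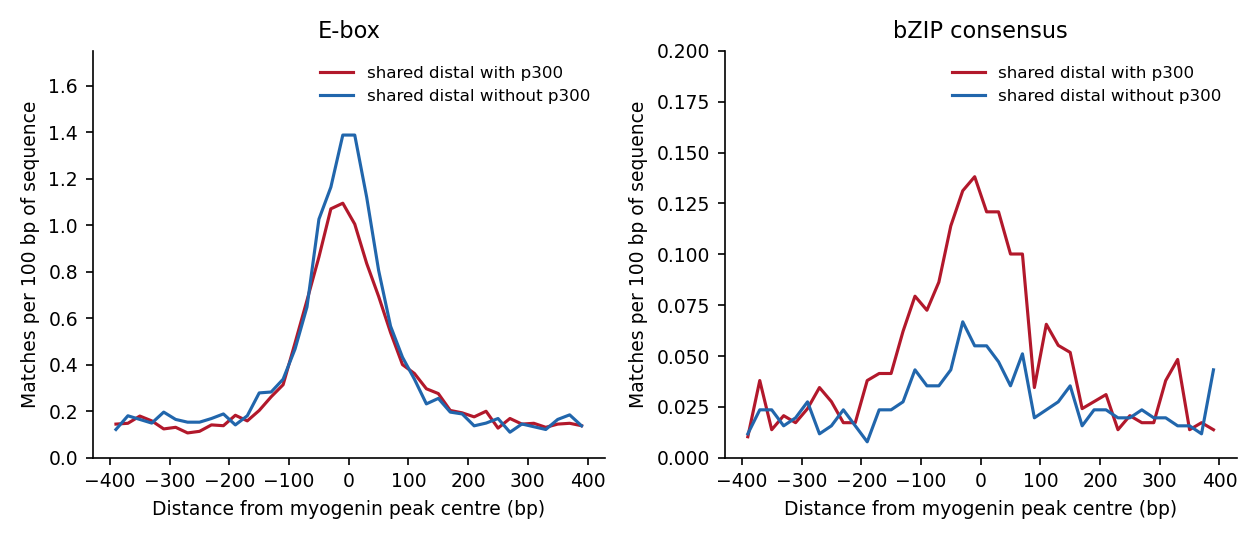
Matches per 100 bp of sequence (y axis) against distance from the center of the bexarotene myogenin interval (x axis, bp, in steps of 20 bp) for the E-box and the bZIP consensus, at shared distal peaks with and without p300. Both consensus sequences are densest at the center; averaged over 40 bp on each side, the E-box has 1.0 match with p300 and 1.26 without, and the bZIP consensus 0.128 and 0.0560.

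The Runx consensus was present at 37.8% of the sites (14.1% in flanking windows) and at 31.1% of those without p300 (difference 6.72 points, 3.14 to 10.3). By length, the Runx difference was 13.6 points (6.18 to 21.0) among intervals of the smallest length, and 2.96 to 7.41 points in the 4 longer classes, each with an interval that included 0. The Tead consensus GGAATG was at 23.1% (11.4% in flanking windows) against 19.5% (difference 3.57 points, 0.481 to 6.63). Within 50 bp the Tead difference was 0.786 points (-1.69 to 3.23), with an interval that included 0. The Meis consensus TGACAG was at 27.1% (13.3% in flanking windows) against 30.0% (difference -2.96 points, -6.36 to 0.437), and the Mef2 consensus at 3.66% (3.16%) against 4.01%. Nuclear receptor sequences were as frequent as in flanking windows. The nuclear receptor half-site AGGTCA was at 13.3% of the sites and at 13.4% of flanking windows, and its direct repeat with a 1 bp spacer (DR1), the arrangement bound by retinoid X receptor dimers, was matched at 1 of 1448 sites (0.0691%) and in 0.0709% of flanking windows. The median GC content of the central 200 bp was 50.5% with p300 and 51% without.

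Sites without an E-box held the Runx consensus more often. Of the 174 sites with no E-box within 100 bp, 87 (50.0%, 42.7 to 57.3%) carried a Runx match, against 36.1% (33.5 to 38.8%) of the 1274 sites with one, a difference (with minus without an E-box) of -13.9 points (-21.7 to -6.07). At shared distal peaks without p300 the values were 25.4% without and 31.7% with an E-box (difference 6.35 points, -2.06 to 13.5). Distal peaks with p300 and with myogenin in bexarotene alone had a split in the same direction as the shared sites, with a Runx match at 42.8% without and 34.3% with an E-box (difference -8.45 points, -15.0 to -1.95). Those with myogenin in control alone had it at 29.5% without and 34.4% with an E-box (difference 4.85 points, -3.04 to 12.51), with no split in that direction. The bZIP consensus showed no such split, at 18.1% where an E-box was present and 16.7% where none was (difference 1.39 points, -5.17 to 6.67).

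The consensus sequences lay unequally between the myogenin and p300 centers. Where these were at least 20 bp apart (984 sites), E-boxes within the joined interval were nearer to the myogenin center in 1207 of 2064 cases (58.5%, 56.3 to 60.6%), while 49.7% of the bases of the same intervals were nearer to it. bZIP matches were nearer to it in 118 of 307 cases (38.4%, 33.2 to 44.0%). This departure depended on the p300 list used, since with the control p300 list alone the share was 43.7% (38.6 to 48.95%) where 47.2% of the bases were nearer, and with the bexarotene list alone 42.6% (36.5 to 48.9%) where 51.2% were. Runx (50.9%, 47.3 to 54.5%) and Tead (50.2%, 45.8 to 54.6%) matches were placed like the bases. Taking for each site the E-box nearest to either center, it was closer to the myogenin center at 563 of 937 sites (60.1%, 56.9 to 63.2%).

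**Figure D5:**
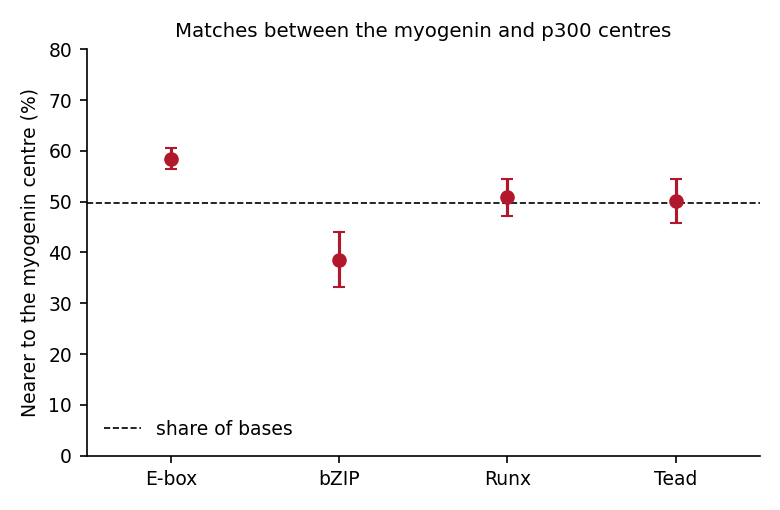
Share of matches (y axis, %) that lay nearer to the myogenin center than to the p300 center, for 4 consensus sequences (x axis), at shared distal peaks whose centers were at least 20 bp apart. Points are shares, bars 95% Wilson intervals and the dashed line the share of bases, 49.7%; E-boxes lie above it at 58.5% and bZIP matches below it at 38.4%.

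The classes of p300 differed in sequence. An E-box was within 50 bp of the center at 66.9% of the sites with p300 in both lists, 72.3% of those with p300 in control alone and 79.6% of those with p300 in bexarotene alone (both lists minus bexarotene alone -12.7 points, -19.1 to -4.95). The asymmetric form was at 14.5%, 21.7% and 26.97% in the same order, and differed between both lists and control alone by -7.24 points (-11.96 to -2.80). Within 100 bp of the center that difference was -4.03 points (-9.46 to 1.22), with an interval that included 0. The bZIP consensus within 100 bp ran the other way, at 19.6%, 16.7% and 11.2%, with 8.43 points (1.93 to 13.4) between both lists and bexarotene alone. Within 50 bp that bZIP difference was 3.96 points (-1.78 to 8.01), with an interval that included 0. The Runx consensus within 100 bp was at 40.1% with p300 in both lists and 33.4% with p300 in control alone (difference 6.72 points, 1.08 to 12.2). The Runx difference within 50 bp was 4.91 points (-0.0401 to 9.56), and its interval included 0. Between both lists and control alone, the intervals of the differences for the E-box as a whole and for the bZIP consensus included 0.

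By the center, 775 of the 1448 (53.5%) were intergenic, 647 (44.7%, 42.1 to 47.3%) were in introns of protein-coding transcripts, 13 in coding exons and 13 in untranslated exons. The median distance to the nearest TSS was 32951.5 bp, against 20111 bp for shared distal peaks without p300, and 38.4% (35.9 to 40.9%) lay more than 50 kb away, against 28.1% (25.7 to 30.6%). Another site of the set lay within 5 kb at 157 sites (10.8%, 9.34 to 12.55%), beside 7.86% (6.51 to 9.47%) among shared distal peaks without p300. Within 50 kb the shares were 31.4% (29.0 to 33.8%) and 28.7% (26.3 to 31.2%), with overlapping intervals. A larger set offers more neighbors, and the sets differed in size (1448 and 1272 peaks), so these shares are a description.

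Within 100 kb, 1153 sites were assigned to 940 nearest protein-coding genes, which are 4.23% of the 22232 in the annotation, and 783 of these genes had 1 site. A nearest gene is an assignment by position and not a measured target. The gene lists below were drawn up for muscle and for bexarotene, and their shares stand beside that 4.23%, with no test.

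Of 16 genes of myoblast fusion and adhesion, 8 had a site: Gm7325, Cdh15, Cdh2, Ncam1, Itga7, Myof, Adam12 and Bin1. Cdh15, Myof and Bin1 had 2 each. Myof encodes myoferlin, a membrane protein of fusing myoblasts, and its site in intron 22, 270 bp long in bexarotene and 263 bp in control, held 2 E-boxes, 1 bZIP match and 1 Runx match near the center. The site 14140 bp upstream of Gm7325 was 454 bp in bexarotene and 466 bp in control, overlapped p300 in both lists and held 4 E-boxes in all, 2 of them in the window printed above. Bin1, which shapes the membrane of the transverse tubules, had p300 in both lists at both of its sites.

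Among myogenic regulators, sites lay nearest to Myod1, Mef2a and Tcf12. Myod1 had 4, all upstream, at 61708, 34802, 26159 and 23101 bp from the TSS. p300 was in both lists at the sites 34802 and 23101 bp upstream, in control alone at the one 26159 bp upstream and in bexarotene alone at the one 61708 bp upstream. Each of the 4 had 1 E-box within 50 bp of the center, and only the one 23101 bp upstream had a bZIP match within 100 bp. Mef2a had 3, at 12649, 87056 and 93551 bp upstream, and Tcf12 had 1. Myog itself had none within 100 kb as its nearest gene.

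Of 46 sarcomere genes, 9 had 1 site each. They were Myh3 (embryonic myosin heavy chain), Tnnt2, Actn2 and Actn3 (alpha-actinins of the Z-disc), Ttn (titin), Neb (nebulin, which runs along thin filaments), Mybpc1, Myom2 (a protein of the M-band) and Nrap. The site nearest to Ttn lay 38172 bp upstream of it, inside intron 21 of Ccdc141, and was 532 bp in bexarotene and 374 bp in control. The Neb site in intron 10 was 466 bp in bexarotene and at the smallest length, 172 bp, in control, and overlapped p300 in control alone. The Myh3 and Actn3 sites overlapped p300 in bexarotene alone.

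By count, the lists below had fewer genes with a site than the fusion or the sarcomere list. By share, cell cycle exit (30%), insulin-like growth factor signaling (25%) and the AP-1, Runx and Tead factors (26.7%) were above the sarcomere genes (19.6%). The others below were under that. At the neuromuscular synapse, 2 of 12 genes had a site, Musk, the receptor kinase that clusters acetylcholine receptors, and Dok7, its activator. For excitation-contraction coupling it was 2 of 17, Cacng1 and Jph2. For cell cycle exit it was 3 of 10, Ccnd3 (cyclin D3, 2 sites in its first intron), Gadd45a (2 sites) and Rb1 (the retinoblastoma protein). For insulin-like growth factor signaling it was 3 of 12, Igf2r, Insr and Irs2, and for muscle metabolism 0 of 14. Of 17 nuclear receptor genes 1 had a site, Rxra, which encodes the retinoid X receptor alpha bound by bexarotene. That site lay 63936 bp downstream of the TSS, was 254 bp in control and 168 bp with bexarotene, overlapped p300 in both lists and held 1 E-box.

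Of 15 genes for AP-1, Runx and Tead factors, whose consensus sequences were counted above, 4 had a site: Runx1, Fosl1, Tead1 and Tead4. Runx1 had 2 within 100 kb, at 1774 and 78120 bp upstream, each with an E-box and a bZIP match near the center and p300 in both lists. Fosl1, a Fos-related bZIP gene, had a site 2479 bp upstream with p300 in control alone.

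Outside these lists, Mtss1, which encodes a protein that links membranes to actin, had the most sites, 7, followed by Plxna1 (a semaphorin receptor) and Srsf3 (a splicing factor) with 5 each. Sik1 (a salt-inducible kinase), Wisp1 (a secreted matricellular protein), Fggy, Nedd9 (an adhesion scaffold), Hdac4 (a histone deacetylase that restrains Mef2) and Tmsb10 (an actin-binding peptide) had 4 each, and Lrch1 had 3. Beside 60.6% over all sites, p300 was in both lists at 2 of the 7 sites of Mtss1, 3 of the 5 of Plxna1 and of Srsf3, 3 of the 4 of Hdac4 and of Wisp1, 2 of the 4 of Sik1, Fggy, Nedd9 and Tmsb10, and 2 of the 3 of Lrch1.

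Several sites lay close together near some genes. At Srsf3, 5 sites lay within 7367 bp on chromosome 17, each with an E-box within 50 bp of its center. They lay between the end of Srsf3 and the start of the next gene, Cdkn1a, which encodes the cell cycle inhibitor p21, at 18395 to 25472 bp from the Srsf3 TSS and 32834 to 39911 bp upstream of Cdkn1a. By the nearest-TSS rule none was assigned to Cdkn1a. Groups of 4 lay within 5172 bp in Plxna1, within 11749 bp upstream of Wisp1 and within 16692 bp in Mtss1. A further group of 4 lay within 10346 bp inside Iffo1, at 9310 to 19013 bp from the start of the neighboring gene Gapdh.

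At the Mybph, Adora1 and Myog locus on chromosome 1, a single site of the set lay within 50 kb of any of the 3 genes. Mybph encodes a myosin-binding protein and Adora1 an adenosine receptor. The site was 9965 bp upstream of Adora1 and ran for 704 bp in bexarotene and 604 bp in control. It overlapped p300 in bexarotene alone and held 8 E-boxes over its length, 1 of them within 50 bp of its center. Its central 300 bp (chr1:136141823-136142122, plus strand) are shown because the interval has many E-boxes but few at its center, with E-boxes in capitals.
Adora1: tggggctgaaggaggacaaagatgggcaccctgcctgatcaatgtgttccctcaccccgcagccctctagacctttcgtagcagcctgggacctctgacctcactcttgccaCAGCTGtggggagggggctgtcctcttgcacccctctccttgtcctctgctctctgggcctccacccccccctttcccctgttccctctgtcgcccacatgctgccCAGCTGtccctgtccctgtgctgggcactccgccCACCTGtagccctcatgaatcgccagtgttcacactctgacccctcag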

How the data were processed

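Myogenin and p300 peaks came from 4 ChIP-seq libraries of C2C12 cells, 1 per condition. Per the methods and the submitters' processing notes, the authors aligned myogenin reads with BWA-MEM and p300 reads with Bowtie to mm9, removed duplicates with Picard and called peaks in each library with HOMER in factor style. The deposited files hold other values than counts: the chromosome, start and end of each peak. Starts count from 0 in the files and from 1 here. The input and H3K27me3 libraries were not used here.

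Overlap meant at least 1 bp. TSS, introns and exons came from GENCODE vM1 and sequence from the mm9 genome. On either strand, E-boxes were sought 50 bp to each side of the bexarotene interval's center and other consensus sequences 100 bp to each side, and flanking windows were 2 kb away. Peaks with myogenin in control alone have no bexarotene interval, and the control interval gave their center. Shares have Wilson and differences Newcombe 95% intervals. The functions were tested on simulated data. Python 3.11.15, numpy 2.4.6, pandas 2.3.3, pysam 0.24.0 and matplotlib 3.10.9 were used.

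Per gene list the text names up to 4 genes with most sites, or all where the list's count is given. Outside the lists it names the 10 with most, ties taken by longest interval, and over all sites the 5 longest intervals. Of the sites with 4 E-boxes near the center, windows are printed for Rgmb and D430041D05Rik. Those near A230051G13Rik and Tnfsf13b, with p300 in bexarotene alone, are not printed. The Purb site was 1 of 47 with 3. The members and lists were chosen with earlier results of these data known. Alternatives changed the overlap, TSS limit, TSS catalog, p300 list, window, consensus and length class. One item of the gene lists is not reported here, and no count is given for its list.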

Additional observations from a re-analysis of the deposited data

How the results depend on the processing

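Of 49 alternatives, 30 were classed as leaving a value unchanged, 16 as moving it and 3, all of the E-box difference, as bringing 0 into its interval. Unchanged meant within the interval for a share or median, and on the same side of 0 for a difference. The number of sites has no interval and was classed by a fixed fold limit, under which 1029 to 1406 sites counted as unchanged and 877 as moved. Of the 49, 7 were chosen after seeing the data. The 5 length classes in which the report gives the E-box and bZIP differences are not among these 49. In them, the E-box difference turned from -6.44 points over all lengths to 1.22 and 1.60 points in the classes of 300 bp and longer, with intervals that included 0. The number of sites was 877 with p300 required in both lists and 1029 to 1406 under the other rules. The share with an E-box was 88.0% within 100 bp, 92.4% over the whole interval, 58.8% for CAGCTG alone, 86.5% for any CANNTG, 65.0% around the control center and 66.9% with p300 in both lists. The E-box difference from shared distal peaks without p300 was -1.48 points within 100 bp, -3.10 points for CAGCTG alone and -3.75 points from 250 to below 400 bp, where the intervals included 0. The bZIP difference ranged from 6.11 to 14.1 points, except at 400 bp and longer, where it was 3.04 points with an interval that included 0. Median length was 288 bp without intervals of the smallest length and 256.5 bp in the control list, and 265 bp for peaks without p300 above the smallest length. The p300 center lay a median of 49 bp away in the control list and 46 bp in the bexarotene list. With any CANNTG, 55.7% of matches, and the nearest match at 56.7% of sites, were on the myogenin side. Another site lay within 5 kb at 10.8% and within 50 kb at 31.4%. The difference in p300 found again was 39.0 points without chromosome 8, 34.4 points above the smallest length and 20.4 points at 400 bp and longer. The lists hold no tag counts, so the depth of each library could not be examined. No paired analysis was possible because each condition has 1 library.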
